A study of Mus musculus with 35 samples.

Results

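The renin-angiotensin genes followed here were Ren1, Agt, Ace, Agtr1a, Agtr2 and Akr1b7, chosen by name and found once each among the 31053 genes of the count tables, so 6 of 31053. All 6 were measured in each of the 35 libraries. The libraries were 3′ messenger RNA libraries of whole mouse kidneys, C57BL/6 strain, taken at postnatal day 2. They came from 3 crosses, each with controls of its own. The libraries labelled Flcn KO (n = 5, against 5 controls) came from Flcn flox/flox mice with Ksp-cre, in which the Cdh16 promoter drives Cre in the collecting duct, the distal tubule and the thick ascending limb. Those labelled Flcn/Tfeb DKO (n = 4, against 3 controls) carried Tfeb flox/flox in addition, so that both genes were removed in the same segments. Those labelled Flcn/Tfe3 DKO (n = 10, against 8 controls) were Flcn flox/flox; Ksp-cre mice that were Tfe3-/- in every cell, and their counts were in 2 tables, here the first set (6 DKO, 3 controls) and the second set (4 DKO, 5 controls). The study describes its control kidneys as Flcn flox/flox, and the labels do not say which Tfeb or Tfe3 alleles the controls of the double crosses carried. Folliculin, the product of Flcn, restrains the transcription factors TFEB and TFE3, and the crosses ask what each factor contributes once Flcn is lost. The question for these genes was at which level each was expressed in the newborn kidney and whether that level differed between the kidneys of each cross and their controls.

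The renin-angiotensin system raises blood pressure and salt retention through a chain of cleavages. Renin, a protease secreted by juxtaglomerular cells at the glomerular arteriole, cuts angiotensinogen, the angiotensin-converting enzyme ACE makes angiotensin II from the product, and angiotensin II acts through the AT1 and AT2 receptors. In the developing kidney renin cells are spread along the larger arteries before they become restricted to the juxtaglomerular position, and loss of renin, angiotensinogen, ACE or AT1 receptors leaves the kidney malformed. Renin cells are not among the segments that Ksp-cre is known to reach.

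The members lie on 6 chromosomes of the mm10 assembly. Ren1 (ENSMUSG00000070645), which encodes renin, lies at chr1:133350510-133360325 on the plus strand. Agt (ENSMUSG00000031980), which encodes angiotensinogen, lies at chr8:124556534-124569706 on the minus strand. Ace (ENSMUSG00000020681) lies at chr11:105967945-105989964 on the plus strand. Agtr1a (ENSMUSG00000049115), the gene of the main rodent AT1 receptor, lies at chr13:30336441-30382867, and Agtr2 (ENSMUSG00000068122), the AT2 receptor gene, at chrX:21484544-21489164, both on the plus strand. Akr1b7 (ENSMUSG00000052131), an aldo-keto reductase that renin cells and adrenal cortex cells are known to express, lies at chr6:34412334-34423142 on the plus strand. The 3′ method reads the end of each transcript, so the last exon is where most reads should fall. The last exon of Akr1b7 overlapped the pseudogene Gm13857 on the other strand, and since the strand setting of the counting is not given in the sources used here, the Akr1b7 counts are less certain than those of the other members. In the GENCODE release M21 annotation no other member had a neighbour over its last exon.

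TFEB and TFE3 bind the letters CACGTG, so the promoters of the members were read for them. RefSeq promoter windows of the GRCm38.p6 build, from 250 bases before to 50 bases after the start, were on hand for 5 of the 6 members, with 2 windows for Ace and none for Agtr1a. The promoters of Ren1, Agt and Akr1b7 are shown because Ren1 and Agt are the enzyme and its substrate and Akr1b7 shares the renin cell with Ren1. Capitals mark matches to the general E-box CANNTG and to the TATA box TATAAA, searched on both strands. The Ren1 window is chr1:133350424-133350723 on the plus strand, the Agt window chr8:124569657-124569956 on the minus strand and the Akr1b7 window chr6:34412112-34412411 on the plus strand.
Ren1: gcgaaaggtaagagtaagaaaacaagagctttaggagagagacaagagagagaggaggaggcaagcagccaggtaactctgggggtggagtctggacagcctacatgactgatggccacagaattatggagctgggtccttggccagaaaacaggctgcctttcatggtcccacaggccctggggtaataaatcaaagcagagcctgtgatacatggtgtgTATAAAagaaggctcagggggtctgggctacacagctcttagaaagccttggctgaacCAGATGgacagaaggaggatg
Agt: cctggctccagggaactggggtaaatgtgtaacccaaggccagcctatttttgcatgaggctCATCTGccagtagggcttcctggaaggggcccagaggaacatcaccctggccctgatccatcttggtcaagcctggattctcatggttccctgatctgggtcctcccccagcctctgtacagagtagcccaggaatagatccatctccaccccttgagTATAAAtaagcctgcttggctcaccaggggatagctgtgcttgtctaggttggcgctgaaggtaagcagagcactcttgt
Akr1b7: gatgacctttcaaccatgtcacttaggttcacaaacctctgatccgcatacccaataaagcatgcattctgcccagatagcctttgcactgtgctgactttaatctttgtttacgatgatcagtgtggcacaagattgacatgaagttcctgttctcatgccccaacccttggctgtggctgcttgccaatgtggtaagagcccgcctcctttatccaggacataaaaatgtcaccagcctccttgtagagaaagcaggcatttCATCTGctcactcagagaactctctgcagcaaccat

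The letters CACGTG were found in 0 of the 6 member windows, and in 2349 of 32851 mouse promoter windows of the same length (7.15%). The looser E-box CANNTG, which includes CACGTG, was in 72.3% of all windows and in 5 of the 6 member windows, all but 1 of the Ace windows, at 29 bases from the start in Ren1, at -188 in Agt and at 14 in Akr1b7. TATAAA, in 13.6% of all windows, was at -29 in Ren1, at -30 in Agt and at -31 in 1 Ace window. TGACG, the core of the cyclic AMP response element (20.8% of all windows), and the RBPJ core TGGGAA (25.6%) were in 0 member windows. These matches describe letters in the window only, and say nothing of whether a factor was bound or acts from farther away.

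Library totals ran from 1652649 to 4239356 counts (median 2992169), and mitochondrial genes took 1.79% to 11.9% of them. Levels are given as CPM, the share of a library's counts on its TMM-scaled size. A transcript gives about 1 read site in a 3′ library whatever its length, so CPM was not divided by gene length and can be set side by side between genes. The kidney markers Cdh16, Umod, Aqp2 and Lrp2 were present in every library. The targeted genes did not separate the groups past the adjusted threshold: Flcn was 15.1 ± 3.25 CPM (SD, n = 5) with the Flcn KO label and 13.9 ± 2.26 (SD, n = 5) in controls, Tfeb was 7.47 ± 0.680 (SD, n = 4) in Flcn/Tfeb DKO and 11.96 ± 6.67 (SD, n = 3) in their controls (log2 fold change -0.73, SE 0.38, edgeR adjusted p = 0.798), and Tfe3 was 18.5 ± 3.80 (SD, n = 10) in the Flcn/Tfe3 DKO libraries and 19.2 ± 3.11 (SD, n = 8) in their controls, against 32.0 ± 5.19 (SD, n = 5) in the controls of the Flcn cross. For Flcn and Tfeb, removed in some segments only, whole kidneys may dilute a loss. For any of these genes a 3′ read may lie outside the deleted part. Neither was tested, and the labels do not give the Tfe3 alleles of the Flcn/Tfe3 controls. Control Flcn/Tfeb replicate 3 stood apart, with 4.47% mitochondrial counts where the other 6 libraries of its cross had 9.16% to 11.9%. So did control Flcn replicates 4 and 5, with 4.88% and 4.93% where the other 8 libraries of that cross had 7.33% to 11.1%, and with the mitochondrial share as a covariate Ren1 was at -0.40 and Agt at -0.69 on the log2 scale in that cross.

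Ren1 was the most abundant member in the newborn kidney. In the 16 controls its level ranged from 136 to 402 CPM (239 ± 82.5, SD, n = 16), which placed it at rank 595 of the 20214 genes detected in controls. Ace followed at 32.5 ± 7.94 CPM (SD, n = 16) and Agtr1a at 26.6 ± 5.54 (SD, n = 16). Agt was at 20.4 ± 17.4 CPM (SD, n = 16), Akr1b7 at 16.7 ± 4.91 (SD, n = 16) and Agtr2 at 6.67 ± 3.80 (SD, n = 16). Ren1 exceeded Ace in 16 of 16 controls, without overlap of their ranges, by a ratio of means of 7.36. The next steps of the order were not separated in this way. Ace exceeded Agtr1a in 11 of 16 controls, Agtr1a exceeded Agt in 14 of 16, and Agt exceeded Akr1b7 in 7 of 16. Akr1b7 exceeded Agtr2 in 16 of 16 controls, but their ranges overlapped. The counts behind these levels ranged over the 35 libraries from 195 to 1483 for Ren1, from 34 to 133 for Agtr1a, from 8 to 342 for Agt and from 4 to 83 for Agtr2, so Agtr2 is the member with the fewest counts.

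**Figure D1:**
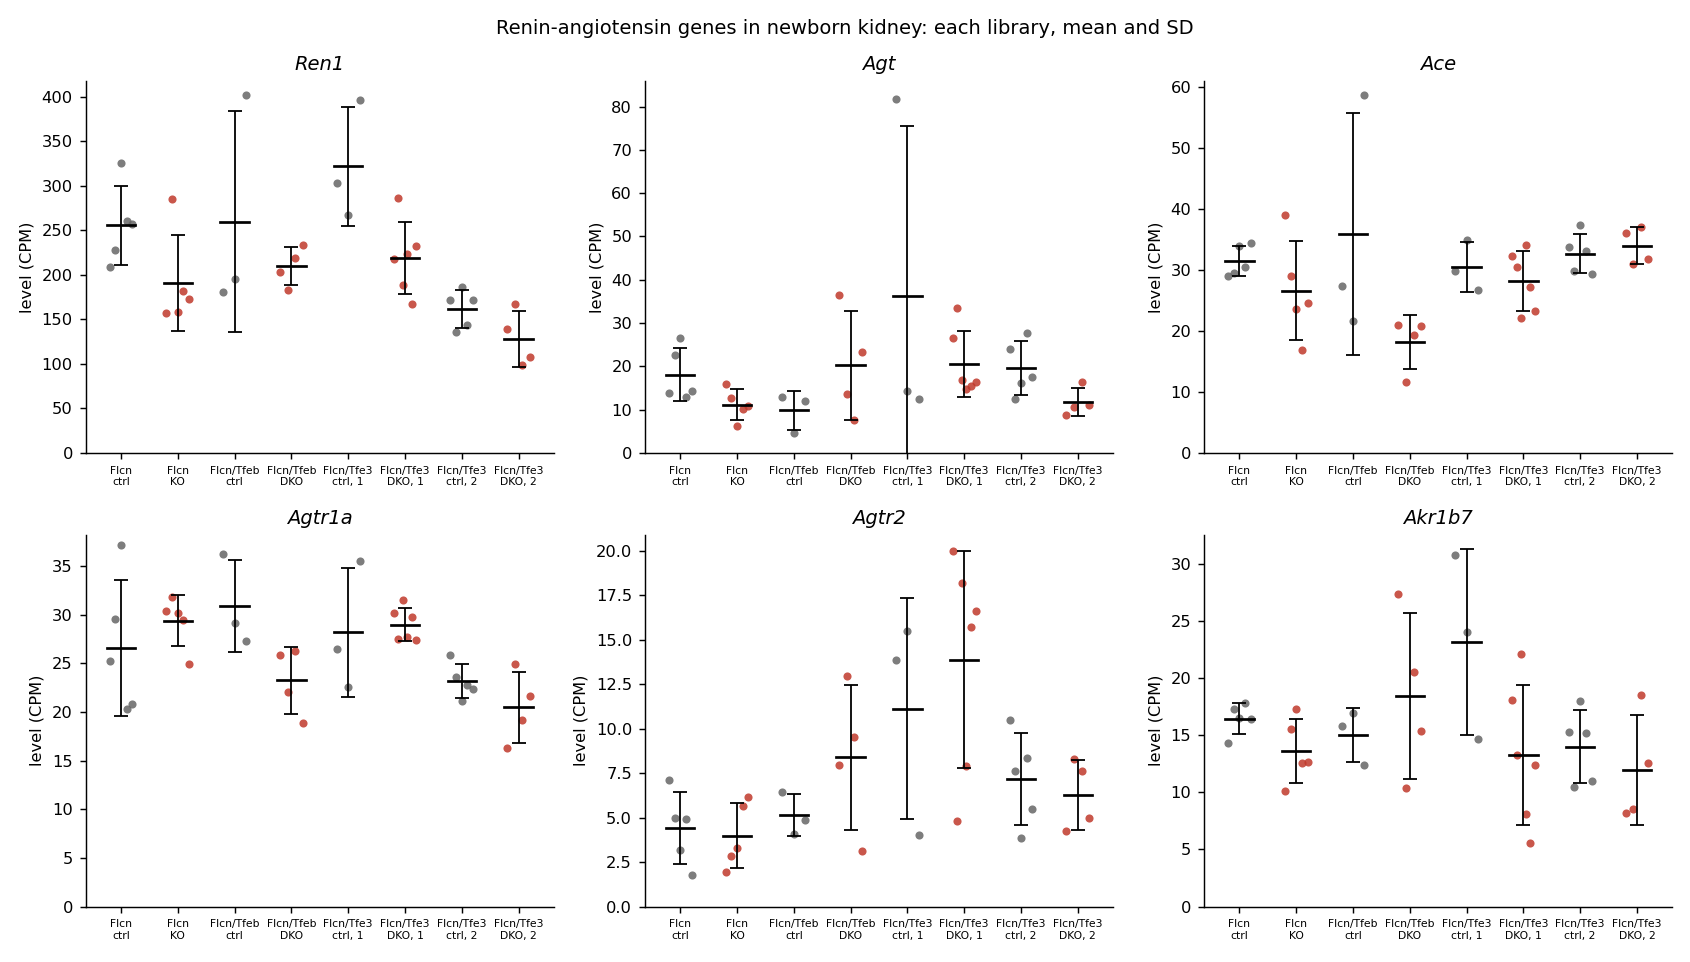
Level of each of the 6 renin-angiotensin genes (CPM, 1 panel a gene) in each library, by group, with 1 point per library and the mean and SD of each group; 1 and 2 after Flcn/Tfe3 mark the first and second set, and an SD bar that would pass below 0 is cut there. Ren1 was lower in the second set, where controls lay at 136 to 186 CPM, than in the first, where they lay at 267 to 396 CPM.

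By the test used for each cross, edgeR's quasi-likelihood test adjusted over all genes, 0 of the 6 members passed an adjusted p of 0.05 in any cross, and DESeq2 also called 0. In the Flcn cross 62 of 11932 genes tested passed (0.52%), in the Flcn/Tfeb cross 0 of 12469 (0%) and in the Flcn/Tfe3 cross 48 of 12456 (0.385%). At an unadjusted p under 0.05, which 9.07%, 5.07% and 7.15% of genes met in either direction, 2 of 6 members were lower in the Flcn cross (Ren1 and Agt), 1 of 6 in the Flcn/Tfeb cross (Ace) and 3 of 6 in the Flcn/Tfe3 cross (Ren1, Agt and Akr1b7). Of all genes tested, 3.81%, 3.21% and 3.48% were lower at that level in the 3 crosses. The members' median log2 fold change was -0.25, -0.0019 and -0.24 in these crosses, in the same order, beside -0.0074, -0.017 and 0.0090 over all genes tested. The labels do not say which libraries come from separate litters, and the p-values measure the spread between these libraries. In whole kidneys fewer cells of a type and less RNA per cell cannot be told apart.

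**Figure D2:**
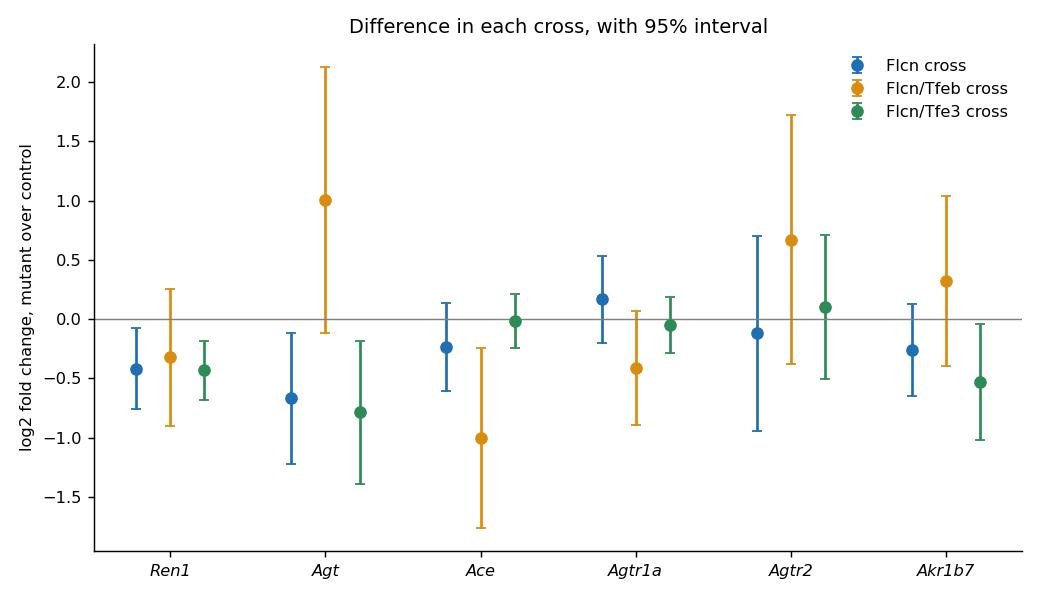
Log2 fold change of each of the 6 renin-angiotensin genes against the controls of its cross (points, edgeR) with its 95% interval (bars), 1 colour a cross. Ren1 was at -0.42, -0.32 and -0.43 in the 3 crosses, while Agt and Ace spread most between crosses.

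Ren1, the enzyme that sets the pace of the cascade, was at 157, 285, 158, 182 and 172 CPM in Flcn KO replicates 1 to 5 and at 208, 228, 325, 260.1 and 257 CPM in the 5 controls. KO replicates 1, 3, 4 and 5 were below every control, and replicate 2 lay above 4 of the 5 controls. The log2 fold change was -0.42 (SE 0.16, 95% interval -0.76 to -0.08), with an edgeR adjusted p = 0.421 and an exact two-sided permutation p = 0.0556, where the smallest p this design allows is 0.00794. With 1 library left out at a time the fold change ranged from -0.62 (without KO replicate 2, edgeR adjusted p = 0.0805) to -0.32 (without control replicate 3), and edgeR's unadjusted p from 0.000354 to 0.0719. That unadjusted p was 0.05 or more without control replicate 3, KO replicate 1 or KO replicate 3.

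In the Flcn/Tfeb cross Ren1 was at 203, 183, 219 and 233.3 CPM in the DKO and at 180, 196 and 402 CPM in the controls. The DKO values lay inside the range of the controls, of which replicate 3 was far above the others. The log2 fold change of Ren1 was -0.32 (SE 0.26, 95% interval -0.90 to 0.26, edgeR adjusted p = 0.804). It was 0.15 without that control and 0.35 with the mitochondrial share as a covariate, so the direction in this cross rests on 1 library.

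In the first set of the Flcn/Tfe3 cross Ren1 was at 167 to 286 CPM in the DKO (median 220.4, n = 6) and at 303, 267 and 396 CPM in the controls. In the second set it was at 139, 167, 98.5 and 107 CPM in the DKO and at 172, 136, 186, 144 and 171 CPM in the controls. In the first set 5 of 6 DKO libraries were below every control, and in the second 2 of 4 were. With the set as a term, the log2 fold change was -0.43 (SE 0.12, 95% interval -0.69 to -0.18). Its edgeR adjusted p was 0.195, from an unadjusted p of 0.0016, DESeq2 gave an adjusted p of 0.0566, and the exact permutation within sets gave p = 0.00368. Within the first set alone the fold change was -0.55 (edgeR adjusted p = 0.667) and within the second -0.36 (edgeR adjusted p = 0.197). Leaving out 1 library at a time kept it between -0.52 and -0.35. It was -0.30 with the replicate number as a block (unadjusted p of 0.127 by edgeR) and -0.28 with no term for the set (unadjusted p of 0.204 by edgeR). For the block fit only numbers 1, 2, 3, 7 and 8 held a DKO and a control of the same set. The block estimate rests on those numbers, which are not known to mark pairs. With the fits described first, Ren1 was lower at an unadjusted p in the Flcn and the Flcn/Tfe3 cross, and past the adjusted threshold in neither. The same held for Agt. Both are among the 24 of 11823 genes tested in both crosses (0.203%) that were lower at an unadjusted p in each.

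Agt, the substrate of renin, which the liver makes in far larger amounts than the kidney, was at 15.9, 12.6, 6.26, 10.0 and 10.9 CPM in Flcn KO and at 13.8, 22.7, 26.5, 12.9 and 14.4 CPM in the controls. KO replicates 2 to 5 were below the lowest control, and KO replicate 1 was within the control range. For Agt the log2 fold change was -0.67 (SE 0.26, 95% interval -1.22 to -0.12, edgeR adjusted p = 0.424). The exact two-sided permutation p was 0.0556.

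In the Flcn/Tfeb cross Agt went from 7.61 to 36.5 CPM over the 4 DKO libraries and from 4.67 to 12.8 CPM over the 3 controls, with overlap. The log2 fold change of 1.004 (SE 0.51, 95% interval -0.12 to 2.13) had an edgeR adjusted p = 0.798, and it was 0.55 without DKO replicate 1 and 1.82 with the mitochondrial share as a covariate. In the Flcn/Tfe3 cross the first set had Agt at 14.7 to 33.5 CPM in the DKO (median 16.6, n = 6) and at 81.7, 14.3 and 12.5 CPM in the controls. The second set had 8.73, 10.7, 16.4 and 11.1 CPM in the DKO and 24.1, 12.5, 16.2, 27.7 and 17.6 CPM in the controls. Control replicate 1 alone was at 81.7 CPM, more than 2 times any other library of the series. Over both sets the log2 fold change was -0.79 (SE 0.29, 95% interval -1.39 to -0.19, edgeR adjusted p = 0.448) and without that library it was -0.20. With the replicate number as a block, which rests on numbers 1, 2, 3, 7 and 8 only, it was -0.48 (unadjusted p of 0.241 by edgeR). Within the first set, which holds that library, it was -0.83. Within the second, which does not, it was -0.78 (unadjusted p of 0.00812, edgeR adjusted p = 0.0940). For Agt 3 of 4 DKO libraries there were below every control, and the exact permutation p was 0.0476. Of 12169 genes tested in that set 2592 had an unadjusted p under 0.05, and 569 were called (4.68%). Library totals did not overlap in it, at 3159884 to 3555791 counts in the DKO and 1719367 to 2909353 counts in the controls. The liver marker sum described next did not overlap in the second set, at 239 to 379.9 CPM in the DKO and 399 to 4064 CPM in the controls, while Agt did.

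The levels of Agt moved with liver transcripts. The summed level of 8 liver markers (Alb, Apoa1, Apoa2, Ttr, Serpina1b, Fgb, Ahsg and Apoh) ranged from 239 to 7521 CPM over the 35 libraries, and its correlation with Agt, each taken as deviation from its group mean on the log2 scale, was 0.83 (Pearson, n = 35, described without a test because both come from the same libraries). The 2 libraries highest in Agt, control Flcn/Tfe3 replicate 1 and Flcn/Tfeb DKO replicate 1, had liver sums of 7521 and 4752 CPM. In the Flcn/Tfe3 cross 8 of 8 liver markers were lower in the DKO at an unadjusted p, beside 3.48% of all genes. Their median log2 fold change was -2.01. Among the controls there the liver sum was 7521 and 4064 CPM in replicates 1 and 7 and 399 to 1588 CPM elsewhere. It was 239 to 2518 CPM in the DKO. The 8 markers share these libraries and are not 8 separate results. In the Flcn/Tfeb cross 8 of 8 were above 0, with a median of 1.69. In the Flcn cross their median was -0.15. In each cross edgeR and DESeq2 called 0 of them. With the liver sum as a covariate the log2 fold change of Agt was -0.60 with Flcn KO (edgeR adjusted p = 0.354), 0.26 in Flcn/Tfeb DKO and 0.0036 in Flcn/Tfe3 DKO.

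**Figure D3:**
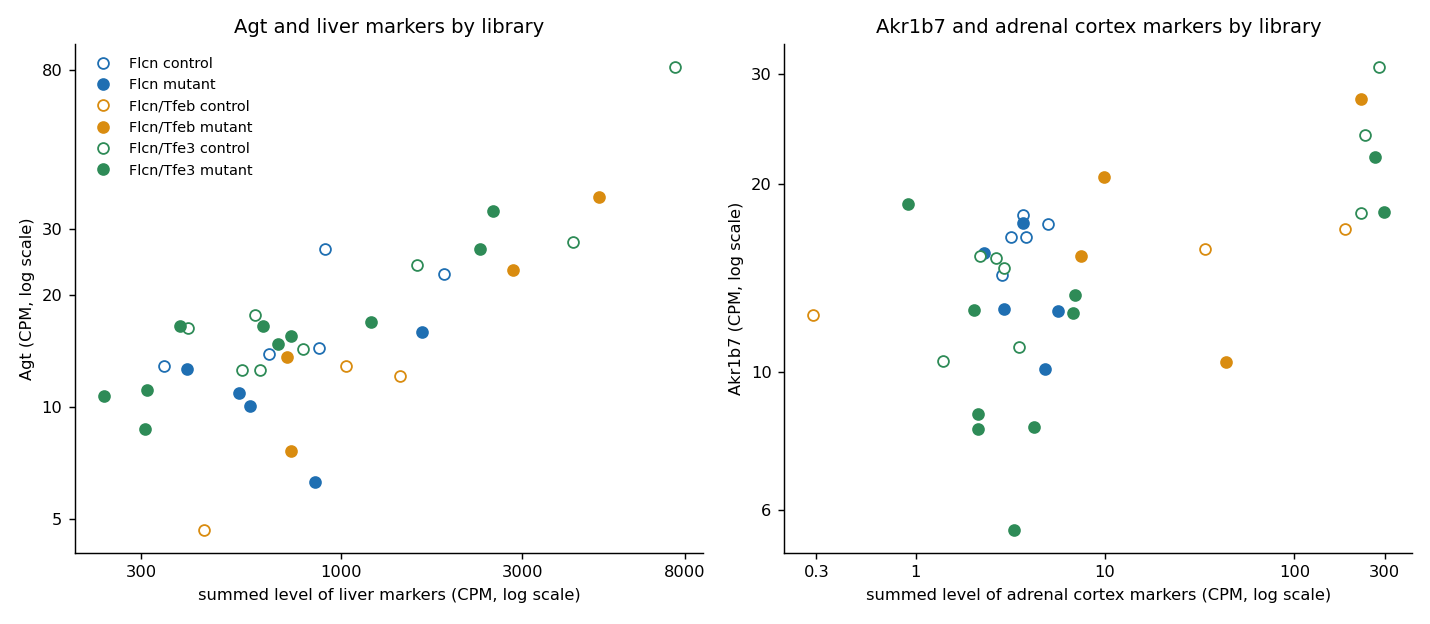
Each point is 1 of 35 libraries: Agt (CPM) against the summed level of 8 liver markers, and Akr1b7 (CPM) against the summed level of 9 adrenal cortex markers, on logarithmic axes, coloured by cross, with open circles for controls and filled ones for KO or DKO. Agt was highest, at 81.7 CPM, in the library with the highest liver sum, and Akr1b7 reached 30.8 CPM among the 7 libraries with over 100 CPM of adrenal cortex markers.

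Ace, the converting enzyme, which sits on endothelium and on the proximal tubule brush border, was at 39.0, 29.0, 23.6, 16.9 and 24.6 CPM in Flcn KO and at 29.1, 29.5, 34.0, 30.4 and 34.3 CPM in the controls. KO replicate 1 was above every control and the other 4 were below every control. A log2 fold change of -0.23 (SE 0.18, 95% interval -0.61 to 0.14, edgeR adjusted p = 0.712) resulted, and it was -0.39 without KO replicate 1 and -0.13 without KO replicate 4. In the Flcn/Tfe3 cross Ace was at 22.1 to 34.1 CPM in the first-set DKO (median 28.8, n = 6) beside 29.8, 34.9 and 26.7 CPM in the controls, and at 31.1 to 37.1 CPM in the second-set DKO beside 29.4 to 37.4 CPM. These groups overlapped throughout, and the fold change was -0.02 with a 95% interval of -0.24 to 0.21.

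In the Flcn/Tfeb cross Ace was at 21.0, 11.7, 19.4 and 20.8 CPM in the DKO and at 27.4, 21.6 and 58.6 CPM in the controls. All 4 DKO libraries were below all 3 controls, and 2.74% of the genes tested had all DKO libraries below all controls. Its log2 fold change was -1.002 (SE 0.35, 95% interval -1.76 to -0.24, edgeR adjusted p = 0.798). The exact two-sided permutation p was 0.0286, the smallest this design allows. Without control replicate 3 the fold change was -0.40, and with the mitochondrial share as a covariate it was -0.07. Of 8 endothelial markers 8 were below 0 in this cross (median -0.18, beside -0.017 over all genes, 0 called by edgeR or DESeq2), with Pecam1, an endothelial adhesion molecule, at -0.48 (unadjusted p of 0.0412, edgeR adjusted p = 0.798). Their summed level was 411 to 481 CPM in the DKO and 452 to 606 CPM in the controls, with overlap. The median of these 8 markers was 0.05 with Flcn KO and 0.15 in Flcn/Tfe3 DKO, with 6 and 8 above 0. Ace was at -0.23 and -0.02 there. Of 9 proximal tubule markers tested in each cross, 7 were below 0 in Flcn/Tfeb DKO (median -0.15). Below 0 were 7 with Flcn KO (median -0.20) and 8 in Flcn/Tfe3 DKO (median -0.21). Neither edgeR nor DESeq2 called any of them. The part of either cell type in the difference of Ace was not tested.

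Agtr1a, through which angiotensin II constricts vessels and drives salt uptake, varied least among the members, with a coefficient of variation of 18.9% over the 35 libraries. It was at 30.4, 31.9, 30.2, 29.5 and 24.9 CPM in Flcn KO and at 25.2, 29.5, 37.2, 20.3 and 20.8 CPM in the controls. The KO libraries lay within the range of the controls, with a log2 fold change of 0.17 (SE 0.17, 95% interval -0.20 to 0.53, edgeR adjusted p = 0.801). It was 0.075 without control replicate 4, 0.087 without control replicate 5 and 0.31 without control replicate 3. In the Flcn/Tfeb cross it was at 25.8, 22.02, 26.3 and 18.9 CPM in the DKO and at 36.2, 29.2 and 27.3 CPM in the controls. The groups did not overlap there, as for Ace, and the fold change was -0.41 (SE 0.22, 95% interval -0.89 to 0.07, edgeR adjusted p = 0.798) with an exact permutation p = 0.0571. In the Flcn/Tfe3 cross the fold change was -0.05 (95% interval -0.29 to 0.18). There Agtr1a was at 27.4 to 31.5 CPM in the first-set DKO and at 26.5, 22.5 and 35.5 CPM in the controls. In the second set it was at 16.3, 24.9, 19.2 and 21.6 CPM beside 21.2 to 25.8 CPM.

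Agtr2, the receptor that opposes many AT1 effects and is known for its high level in fetal mesenchyme, was at 1.93 to 6.16 CPM in Flcn KO and at 1.76 to 7.14 CPM in the controls, ranges that overlap almost completely. Its log2 fold change was -0.12 (SE 0.39, 95% interval -0.94 to 0.70, edgeR adjusted p = 0.953). In the Flcn/Tfeb cross it was at 7.94, 12.95, 9.52 and 3.15 CPM in the DKO and at 6.42, 4.09 and 4.89 CPM in the controls (fold change 0.67, 95% interval -0.38 to 1.72, and 0.42 without DKO replicate 2). In the Flcn/Tfe3 cross it was at 4.83 to 20.004 CPM in the first-set DKO (median 16.2, n = 6), beside 13.8, 15.5 and 4.001 CPM in the controls, and at 4.22 to 8.30 CPM in the second-set DKO, beside 3.88 to 10.5 CPM. Its fold change over both sets was 0.10 (95% interval -0.51 to 0.71). The intervals of Agtr2 leave room for a change of more than 1 log2 unit in the Flcn/Tfeb cross and of less than that in the other crosses.

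Akr1b7, the aldo-keto reductase that accompanies renin in juxtaglomerular cells, was at 10.1, 15.5, 17.3, 12.5 and 12.6 CPM in Flcn KO and at 14.3, 17.3, 16.5, 17.8 and 16.4 CPM in the controls. KO replicates 1, 4 and 5 were below every control. Its log2 fold change was -0.26 (SE 0.19, 95% interval -0.65 to 0.13, edgeR adjusted p = 0.690).

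In the Flcn/Tfeb cross Akr1b7 was at 27.4, 10.4, 20.6 and 15.3 CPM in the DKO and at 15.8, 16.9 and 12.4 CPM in the controls, which lay inside the DKO range (fold change 0.32, 95% interval -0.39 to 1.04, and 0.069 to 0.50 with 1 library left out at a time, lowest without DKO replicate 1). In the first set of the Flcn/Tfe3 cross it was at 5.59 to 22.1 CPM in the DKO (median 12.9, n = 6) and at 30.8, 24.0 and 14.7 CPM in the controls. In the second set it was at 8.17, 8.57, 18.6 and 12.6 CPM in the DKO and at 10.4 to 18.0 CPM in the controls. In the first set 4 of 6 DKO libraries were below every control. Over both sets the log2 fold change was -0.53 (SE 0.24, 95% interval -1.02 to -0.04, edgeR adjusted p = 0.629, exact permutation within sets p = 0.0599). It was -0.81 in the first set and -0.26 in the second.

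Adrenal cortex cells express Akr1b7 too, and adrenal transcripts were present in some libraries. The summed level of 9 adrenal cortex markers (Cyp11a1, Cyp11b1, Cyp11b2, Cyp21a1, Star, Hsd3b1, Nr5a1, Mc2r and Mrap) was 185 to 297 CPM in 7 libraries and 0.287 to 43.4 CPM in the other 28, and Cyp11b2, the aldosterone synthase gene, was at 0 counts in all 35. Akr1b7 was at 16.9 to 30.8 CPM (median 22.1) in the 7 libraries and at 5.59 to 20.6 CPM (median 13.8) in the other 28. Agtr2 was at 3.88 to 20.004 CPM (median 13.8) and 1.76 to 16.6 CPM (median 5.57) in the same libraries, and its fold change without the 7 was 0.57 in the Flcn/Tfeb and 0.15 in the Flcn/Tfe3 cross. Those of the 7 outside the first Flcn/Tfe3 set had Agtr2 at 4.09, 7.94 and 3.88 CPM. First-set DKO replicates 5 and 6, not among the 7, were at 15.7 and 16.6 CPM. As deviations from group means, the correlation of Agtr2 with the adrenal cortex sum was 0.24, beside 0.58 for Akr1b7. None of the 7 was in the Flcn cross. They were control replicate 2 and DKO replicate 1 of the Flcn/Tfeb cross, and control replicates 1, 2 and 6 and DKO replicates 1 and 3 of the Flcn/Tfe3 cross. Leaving out the 7 keeps only control replicate 3 in the first set of the Flcn/Tfe3 cross. Its Ren1, at 396 CPM, was the highest of the controls of that cross. In the Flcn/Tfeb cross control replicates 1 and 3 are kept, and Ace was at 58.6 CPM in replicate 3. Without the 7 libraries the fold change of Akr1b7 was 0.16 in the Flcn/Tfeb cross (edgeR adjusted p = 0.875) and -0.27 in the Flcn/Tfe3 cross (edgeR adjusted p = 0.647). That of Ren1 in the Flcn/Tfe3 cross was -0.44 (edgeR adjusted p = 0.165). Agt without them was 0.25 and -0.41, and Ace -1.32 in the Flcn/Tfeb cross (edgeR adjusted p = 0.591).

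The cells in which renin is made are related to pericytes and vascular smooth muscle, and the markers of those cells did not pass the test. Of 15 pericyte and smooth muscle genes 13 to 14 were tested in each cross. At an unadjusted p under 0.05, which 9.07%, 5.07% and 7.15% of all genes met, there were 1, 0 and 2. By edgeR or DESeq2 0 of the listed genes were called. Their median log2 fold change was -0.07 with Flcn KO, -0.07 in Flcn/Tfeb DKO and 0.05 in Flcn/Tfe3 DKO kidneys, beside -0.42, -0.32 and -0.43 for Ren1. Acta2, the smooth muscle actin, was at -0.07, -0.39 and 0.07 in the 3 crosses. Pdgfrb, a pericyte receptor, was at -0.51 (edgeR adjusted p = 0.312), -0.26 and 0.33 (edgeR adjusted p = 0.561). Myh11, the smooth muscle myosin, was at -0.27, -0.33 and 0.46, and Tagln, an actin-binding protein, at 0.32, 0.17 and -0.31. Across the 35 libraries, as deviations from group means on the log2 scale, Ren1 had a correlation of 0.52 with the sum of 6 markers of the segments that express Cdh16, 0.35 with the pericyte and smooth muscle sum and -0.55 with the blood sum, and Ace one of 0.55 with the Cdh16 segments and 0.46 with the endothelium sum. The Cdh16 segment markers moved apart. Umod was at 1.001, -0.24 and 0.71 in the 3 crosses (edgeR adjusted p = 0.000396, 0.826 and 0.000217). Aqp2 was at -0.48, -0.16 and -0.40, and Calb1 at -0.68, 0.07 and -0.16. DESeq2 called Umod and Calb1 in the Flcn cross, and Umod and Aqp2 in the Flcn/Tfe3 cross. Of 6 blood markers 5 were lower in Flcn/Tfe3 DKO at an unadjusted p, beside 3.48% of all genes (median -0.63, 0 called by edgeR or DESeq2). In the second set the summed blood level was 1409 to 1850 CPM in the DKO and 2083 to 7580 CPM in the controls, and the summed proximal tubule level 2007 to 2320 CPM and 2333 to 3108 CPM, without overlap. In the first set both sums overlapped. The part of these cell types in the differences was not tested.

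The differences between crosses were tested as such, since a change seen in one cross only is not shown to differ from another. The Flcn/Tfeb effect minus the Flcn effect was called for 2 of 13049 genes (0.0153%), the Flcn/Tfe3 effect minus the Flcn effect for 0 of 13615 (0%, and 459 of 12826 genes with the second set alone) and the Flcn/Tfe3 effect minus the Flcn/Tfeb effect for 3 of 13637 (0.022%). By edgeR 0 members were among them, and 2, 0 and 2 members had an unadjusted p under 0.05, as did 5.95%, 8.78% and 13.4% of all genes tested. DESeq2 was not run on these differences. For Ren1 the difference was 0.09 (95% interval -0.57 to 0.75) between the Flcn/Tfeb and the Flcn cross and -0.01 (95% interval -0.44 to 0.43) between the Flcn/Tfe3 and the Flcn cross. For Agt the difference was 1.68 between the Flcn/Tfeb and the Flcn cross (SE 0.57, 95% interval 0.50 to 2.86, edgeR adjusted p = 0.693) and -1.80 between the Flcn/Tfe3 and the Flcn/Tfeb cross (SE 0.64, 95% interval -3.11 to -0.49, edgeR adjusted p = 0.258), beside the liver values above. Without the 7 libraries high in adrenal markers these were 0.93 and -0.34. For Ace it was 0.97 between the Flcn/Tfe3 and the Flcn/Tfeb cross (SE 0.29, 95% interval 0.38 to 1.56, edgeR adjusted p = 0.223). That difference of Ace passed the threshold without control Flcn/Tfeb replicate 2 (1.22, edgeR adjusted p = 0.0342) and was 0.38 without control Flcn/Tfeb replicate 3. Leaving out replicate 2 raised the genes called for this difference from 3 to 157 in all. For Agtr1a the difference was -0.57 between the Flcn/Tfeb and the Flcn cross (SE 0.27, 95% interval -1.13 to -0.01, edgeR adjusted p = 0.824).

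The rest of the system was read from a list of 19 genes of angiotensin processing and reception, of which 12 to 14 were abundant enough to be tested in each cross. In the Flcn cross 1 was called lower (of all genes, 0.067%) and 0 higher, and in the other crosses 0 were called by edgeR. At an unadjusted p under 0.05 there were 5 of 12 (2 higher, 3 lower), 3 of 14 and 3 of 13, beside 9.07%, 5.07% and 7.15% of all genes. DESeq2 called Klk1 there too, 0 in the Flcn/Tfeb cross and Mme in the Flcn/Tfe3 cross. The gene called by edgeR was Klk1, tissue kallikrein, a protease of the distal nephron that makes vasodilator kinins. It fell by 1.43 on the log2 scale with Flcn KO (SE 0.23, edgeR adjusted p = 0.00319), and its fold change was -1.02 in Flcn/Tfeb DKO (edgeR adjusted p = 0.798) and -0.58 in Flcn/Tfe3 DKO (edgeR adjusted p = 0.427). Atp6ap2, the (pro)renin receptor and a proton pump subunit of lysosomes, was at 0.49 with Flcn KO (edgeR adjusted p = 0.313), 0.19 in Flcn/Tfeb DKO and -0.03 in Flcn/Tfe3 DKO. Mme, neprilysin, which degrades angiotensins, was at 0.21, -0.19 and 0.33. The list's median was -0.03, -0.13 and 0.06 in the 3 crosses.

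Renin transcription is known to follow cyclic AMP and Notch signals. Of 16 listed genes of these pathways 13 were tested in each cross and 0 were called by edgeR or DESeq2. At an unadjusted p under 0.05 there were 2, 0 and 0, beside 9.07%, 5.07% and 7.15% of all genes. In the Flcn cross 12 of the 13 listed genes were below 0, with a median of -0.21, beside 0.0019 in Flcn/Tfeb DKO and 0.07 in Flcn/Tfe3 DKO. Over all genes tested the medians were -0.0074, -0.017 and 0.0090 in the 3 crosses. Rbpj, the Notch nuclear effector, was at -0.35 with Flcn KO (edgeR adjusted p = 0.394), -0.30 in Flcn/Tfeb DKO and 0.17 in Flcn/Tfe3 DKO. Adcy6, an adenylyl cyclase, was at -0.40 (edgeR adjusted p = 0.496), 0.35 and -0.04 in the same order, and Gnas, the stimulatory G protein subunit, at -0.21, 0.23 and 0.09.

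The macula densa, a tubule segment within the reach of Ksp-cre, signals to renin cells through prostaglandin E2. Of 6 listed genes 4 or 5 were tested in each cross and 0 were called by edgeR or DESeq2. At an unadjusted p under 0.05 there were 1, 0 and 0, beside 9.07%, 5.07% and 7.15% of all genes. Ptges, the prostaglandin E synthase, was at -0.87 in the Flcn cross (SE 0.25, edgeR adjusted p = 0.206) and at -0.22 in both other crosses. Pappa2 was at -0.27, -0.96 (edgeR adjusted p = 0.798) and -0.19 in the 3 crosses, and Adora1 at -0.19, 0.37 and -0.15. Slc12a1, the NKCC2 salt carrier of the thick ascending limb and macula densa, was at 0.18, 0.01 and 0.08. The list's medians were -0.23, -0.22 and -0.15.

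Downstream of angiotensin II, aldosterone acts on the collecting duct. Of 11 listed genes of that response 10 were tested in each cross. At an unadjusted p under 0.05 there were 3 (all higher) in the Flcn cross. There were 1 (lower) in the Flcn/Tfeb cross and 3 (2 higher, 1 lower) in the Flcn/Tfe3 cross. Of all genes 9.07%, 5.07% and 7.15% met that level. By edgeR and by DESeq2 1 listed gene was called higher in the Flcn cross (of all genes, 0.453%) and 0 in the other crosses. It was Scnn1b, the beta subunit of the epithelial sodium channel, at 0.58 (SE 0.13, edgeR adjusted p = 0.0491), and at 0.29 and 0.19 in the Flcn/Tfeb and Flcn/Tfe3 crosses. Scnn1a, the alpha subunit, was at 0.68 in the Flcn cross (edgeR adjusted p = 0.135). Sgk1, the kinase that aldosterone induces, was at -0.28, -0.04 and -0.41. The medians of the list were 0.15, -0.21 and 0.18. Of the 3 relatives of Akr1b7 in its family, Akr1b3, Akr1b8 and Akr1b10, 0 were called by edgeR or DESeq2 and 0 had an unadjusted p under 0.05 in any cross, with medians of -0.05, 0.31 and 0.02.

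The members shared little of their variation between libraries. As deviations from group means on the log2 scale over the 35 libraries, Ren1 had a Pearson correlation of 0.42 with Ace, -0.40 with Agtr2 and -0.08 with Akr1b7, and Agt one of 0.34 with Ace and 0.33 with Akr1b7. Of 12274 genes with a mean of at least 10 counts per library, the ones most like Ren1 were Med25 (0.81), Eng (0.77), an endothelial coreceptor of TGF-beta, and Scand1 (0.75). Those most like Agt were Igfbp2 (0.82), Mat1a (0.81) and Apoa2 (0.80), and Apoa2 is one of the liver markers. Those most like Ace were Dag1 (0.79), Tinagl1 (0.78) and Slc29a1 (0.78). Agtr1a was most like Slc6a18 (0.68), an amino acid carrier of the proximal tubule, Ranbp3l (0.66) and 3110001I22Rik (0.64). Agtr2 was most like Dhrs7 (0.72), Aspn (0.71), a matrix protein of connective tissue, and Stmn2 (0.70). Akr1b7 was most like Rfx5 (0.67), Adh1 (0.65) and Hsd3b1 (0.64), and Hsd3b1 is one of the adrenal cortex markers. These correlations describe libraries that also differ in depth and in the shares of other tissue, and carry no test.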

How the data were processed

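Messenger RNA 3′ ends were sequenced from 35 kidneys (100 ng of RNA each). The deposited values were whole-number counts per gene, made by the authors by trimming, alignment to mm10 with STAR and counting with HTSeq-count, with no normalization; the labels name Trim Galore where the study's methods name bbduk. The members and the gene lists were chosen with earlier results of these data known. Reads on no gene (7.92% to 19.9%) or not unique (33.7% to 49.4%), tallied for 26 libraries, stayed out of totals and tests. Each cross was compared with its own controls by edgeR 4.0.16 quasi-likelihood F tests (R 4.3.3; TMM; filterByExpr; Benjamini-Hochberg over all genes tested; called at an adjusted p under 0.05), with the set as a term for the Flcn/Tfe3 cross. DESeq2 1.42.0 was the alternative. Intervals are at 95% from edgeR's total degrees of freedom, the residual ones plus its prior ones (scipy 1.17.1). Exact two-sided permutation tests (Python 3.11.15) used log2(CPM + 0.5). At these totals 3 counts equal 0.708 to 1.82 CPM. The tests were checked on simulated data. Over 63 pairs of libraries of 1 group and set, the chi-square divided by its degrees of freedom lay between 2.71 and 39.1, so none was treated as a repeat. Named genes were all members and, per list, genes chosen from those called in any cross, the 3 with the smallest unadjusted p and the 2 most abundant. Left-out libraries, scalings, filters, covariates and blocks were tried as alternatives.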

Additional observations from a re-analysis of the deposited data

Results flagged for a closer look

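With the sets of the Flcn/Tfe3 cross kept apart, the 6 groups of 4 to 6 libraries were examined for each of the 6 members, 36 in all, and 1 value stood far from the rest of its group: Ren1 in Flcn KO replicate 2, at 285 CPM, where the other 4 Flcn KO libraries were at 157 to 182 CPM. Its gap to the nearest of them was 0.803 of the range of the group. How often chance gives a gap of this size among 36 groups was not tested. The 2 control groups of 3 libraries were not examined in this way, and they hold the Agt value of 81.7 CPM beside 14.3 and 12.5, and those of Ren1 (402 CPM beside 180 and 196) and Ace (58.6 CPM beside 27.4 and 21.6). Flcn KO replicate 2 was also the single Flcn KO library with a high level of Xist, the X inactivation transcript (762 CPM, against 0 to 0.627 CPM in the others). Among the controls, replicate 4 had Xist at 438 CPM and Ren1 at 260.1 CPM. With Xist as a covariate the log2 fold change of Ren1 in the Flcn cross was -0.46 (edgeR adjusted p = 0.245), and the part of sex in it was not tested further.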

How the results depend on the processing

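In no cross was a member called under any alternative tried. Of the values of single members, 930 kept their direction and side of the threshold, 47 changed sign and 1 passed the threshold. Changes of sign outside left-out libraries were these. Ren1 in the Flcn/Tfeb cross was at 0.35 with the mitochondrial share as a covariate. Agt in the Flcn/Tfe3 cross was at 0.0036 with the liver markers as a covariate. Ace in the Flcn/Tfe3 cross was at 0.063 with library totals, 0.12 without the libraries high in adrenal markers, 0.0095 with those markers as a covariate and 0.033 in the second set. Agtr1a there was at 0.028 with library totals, 0.050 in the first set and 0.037 without a set term, and Agtr2 at -0.20 in the second set. Of differences between crosses, Ren1 (Flcn/Tfeb minus Flcn) was at -0.023 with library totals and -0.048 without the adrenal libraries. Ren1 (Flcn/Tfe3 minus Flcn) was at 0.13 with library totals and 0.077 in the second set, and Agt at 0.012 with library totals and 0.58 without the adrenal libraries. In the second set the same difference was -0.055 for Agtr2 and 0.013 for Akr1b7. Ren1 (Flcn/Tfe3 minus Flcn/Tfeb) was at 0.15 with library totals, and Agtr2 at 0.0023 without the adrenal libraries. The cause was not tested. Library totals moved the median of all genes to -0.07, -0.14 and 0.09 in the 3 crosses. With CPM on library totals, 1 member had an exact permutation p under 0.05 with Flcn KO in place of 0, and 2 in Flcn/Tfeb DKO in place of 1.

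With 1 library left out at a time, values that changed sign ranged from -0.38 to 0.094 for Agtr2 with Flcn KO, from -0.53 to 0.15 for Ren1 in Flcn/Tfeb DKO, and in Flcn/Tfe3 DKO from -0.049 to 0.035 for Ace, from -0.13 to 0.012 for Agtr1a and from -0.12 to 0.19 for Agtr2. Differences between crosses ranged from -0.10 to 0.58 (Ren1, Flcn/Tfeb minus Flcn), from -0.11 to 0.18 (Ren1, Flcn/Tfe3 minus Flcn), from -0.31 to 0.61 (Agt, the same) and from -0.59 to 0.069 (Ren1, Flcn/Tfe3 minus Flcn/Tfeb). In the last difference members called ranged from 0 to 1, the 1 being Ace without control Flcn/Tfeb replicate 2, and genes called in all from 1 to 157, the 157 in that same setting.

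Same-numbered libraries shared only a number. In the Flcn/Tfe3 cross only numbers 1, 2, 3, 7 and 8 held both a DKO and a control of the same set. The block estimate there rests on those numbers. With a replicate block Agtr1a in the Flcn/Tfe3 cross was at 0.0095 and Ren1 at -0.30, members called stayed at 0, and genes called were 48 in place of 62 in the Flcn cross and 0 in place of 48 in the Flcn/Tfe3 cross. Genes called in the Flcn and Flcn/Tfe3 crosses were 113 and 96 by DESeq2, 95 and 61 without a filter and 147 and 28 with the mitochondrial covariate, and with 1 library left out 37 to 58 and 30 to 53. In the Flcn/Tfe3 cross they were 26 with Xist and 25 with liver markers as a covariate, 73 without the adrenal libraries, 29 without a set term, and 8 and 569 within the first and second set. For the Flcn/Tfe3 minus Flcn difference 459 genes were called with the second set alone, in place of 0. The adrenal and liver alternatives were chosen after seeing the data. Agtr2, at 4 to 83 counts a library, had the fewest counts of the members, and the part of depth in its spread was not tested.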
